A study of Mus musculus with 6 samples.

Results

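The enzymes that turn polyunsaturated fatty acids into leukotrienes and other oxygenated lipids were examined in muscle stem cells (MuSCs), the resident stem cells of skeletal muscle. The set was taken by gene symbol and held 10 of the 49671 genes listed: the lipoxygenases Alox5, Alox12, Alox15, and Alox8, the 5-lipoxygenase activating protein Alox5ap, the leukotriene-forming enzymes Lta4h and Ltc4s, the epoxide hydrolases Ephx1 and Ephx2, and the lipid hydroperoxide peroxidase Gpx4. All 10 were found. RNA was measured in 6 libraries, 3 from mice given resolvin D1 (RvD1) and 3 from mice given vehicle, the saline with ethanol in which RvD1 was dissolved. Every mouse was a female C57BL/6 animal aged 4 to 6 months whose tibialis anterior muscles on both sides had been injured with barium chloride, so no library came from uninjured muscle. RvD1 or vehicle was injected into the peritoneum each day, and muscles were taken at day 3. Each library came from 1 mouse, with the muscles of both legs pooled and the gate kept cells with CXCR4 and β1-integrin on their surface and excluded cells with CD45, Ter119, CD11b, or Sca-1. The sample labels add CD31 to the excluded markers, whereas the methods of the study do not list it.

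Lipoxygenases insert oxygen into arachidonic, eicosapentaenoic, and docosahexaenoic acid. In leukotriene synthesis, 5-lipoxygenase, the product of Alox5, acts on arachidonic acid that the membrane protein encoded by Alox5ap presents to it, and forms the unstable epoxide leukotriene A4. Lta4h hydrolyzes that epoxide to leukotriene B4, an attractant of neutrophils, and Ltc4s joins it to glutathione to give the cysteinyl leukotrienes. RvD1 is itself a product of docosahexaenoic acid and of lipoxygenases that act in sequence. In injured muscle these enzymes are best known from infiltrating leukocytes and platelets rather than from the stem cells.

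Levels were compared between genes as TPM, the authors' estimate per unit of transcript length scaled to a common total in each library. The order ran from Gpx4, with a mean of 366.6 TPM over the 6 libraries, through Lta4h at 146 TPM, Ephx1 at 19.4 TPM, Alox5 at 17.2 TPM, Ltc4s at 6.19 TPM, Alox5ap at 5.76 TPM, and Ephx2 at 3.71 TPM, to Alox15 at 0.0933 TPM, Alox12 at 0.0883 TPM, and Alox8 at 0.085 TPM. Gpx4 was above Lta4h, Lta4h above Ephx1, Alox5 above Ltc4s, and Ephx2 above Alox15 with no overlap of their values among the 6 libraries. The values of Ephx1 and Alox5 overlapped, as did those of Ltc4s with Alox5ap, Alox5ap with Ephx2, Alox15 with Alox12, and Alox12 with Alox8, so these neighbors were not separated beyond their spread, although Alox5ap exceeded Ephx2 within each of the 6 libraries. The mean of Gpx4 exceeded that of 98.1% of the genes with any count, and the mean of Alox5 exceeded that of 74.5%.

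**Figure D1:**
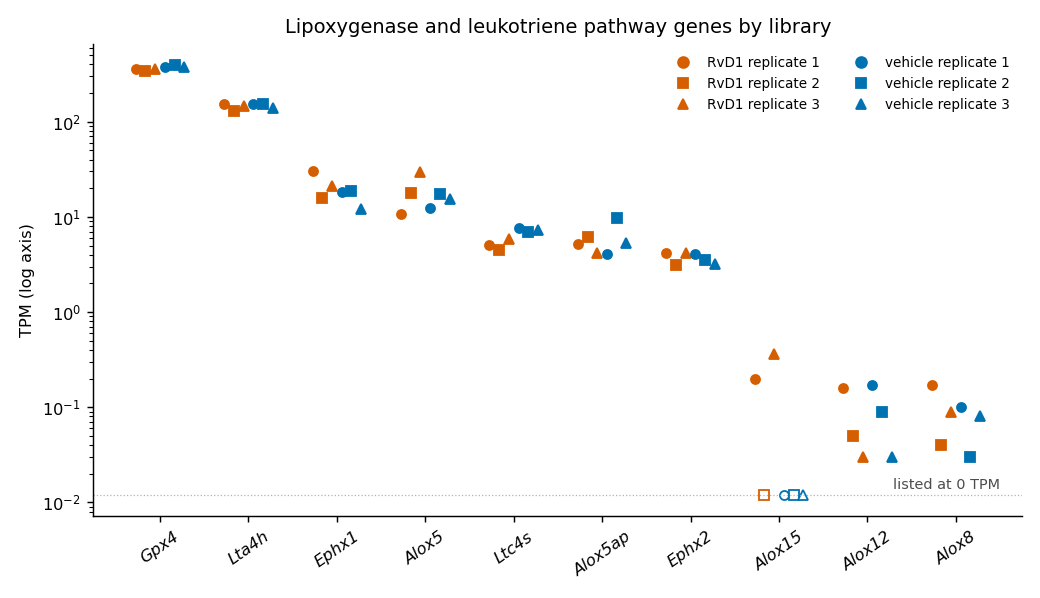
TPM of the 10 genes in each of the 6 libraries on a log axis, ordered by mean level, with RvD1 libraries in orange, vehicle libraries in blue, and replicate numbers as symbols. Open symbols on the dotted line are libraries in which Alox15 is listed at 0 TPM, and Alox15, Alox12, and Alox8 all lie below 0.4 TPM where the other 7 genes lie above 3 TPM.

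Promoter sequences were available for 7 of the 10 genes in the RefSeq table for GRCm38.p6, each with 250 bases before and 50 bases after a transcript start. Those of Alox5 and Alox12 are shown because these lipoxygenases lay far apart in level, and those of Ltc4s and Gpx4 because these are the members whose RvD1 and vehicle libraries overlapped neither in TPM nor in CPM, the count relative to the library total. Capitals mark GGGCGG, the GC box bound by Sp1-type factors, or its reverse complement CCGCCC.
Alox5 (chr6:116461129-116461428, minus strand): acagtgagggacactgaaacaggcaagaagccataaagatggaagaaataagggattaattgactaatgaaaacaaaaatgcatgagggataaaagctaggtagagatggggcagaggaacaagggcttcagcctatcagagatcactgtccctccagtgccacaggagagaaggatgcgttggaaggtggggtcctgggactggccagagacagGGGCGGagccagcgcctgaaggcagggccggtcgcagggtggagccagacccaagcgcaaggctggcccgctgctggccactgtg
Alox12 (chr11:70255321-70255620, minus strand): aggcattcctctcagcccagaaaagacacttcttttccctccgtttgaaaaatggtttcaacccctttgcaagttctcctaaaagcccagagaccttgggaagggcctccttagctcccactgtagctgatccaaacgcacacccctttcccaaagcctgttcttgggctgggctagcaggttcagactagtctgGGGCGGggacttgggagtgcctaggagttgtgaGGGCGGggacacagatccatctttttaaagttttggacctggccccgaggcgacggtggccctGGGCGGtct
Ltc4s (chr11:50238483-50238782, minus strand): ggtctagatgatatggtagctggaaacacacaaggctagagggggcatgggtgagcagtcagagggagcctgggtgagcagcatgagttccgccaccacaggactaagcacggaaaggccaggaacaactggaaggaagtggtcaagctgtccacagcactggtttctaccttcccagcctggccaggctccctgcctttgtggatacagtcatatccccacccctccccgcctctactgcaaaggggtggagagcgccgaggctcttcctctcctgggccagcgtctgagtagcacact
Gpx4 (chr10:80053315-80053614, plus strand): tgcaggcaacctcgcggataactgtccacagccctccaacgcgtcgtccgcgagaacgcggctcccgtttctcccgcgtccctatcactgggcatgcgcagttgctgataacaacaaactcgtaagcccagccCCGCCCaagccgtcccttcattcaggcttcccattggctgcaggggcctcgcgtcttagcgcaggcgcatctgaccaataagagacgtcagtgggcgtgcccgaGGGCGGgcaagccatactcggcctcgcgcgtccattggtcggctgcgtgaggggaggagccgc
A GC box on either strand was present in 35.7% of the 32851 promoters in the table. The Alox5 promoter held 1, the Alox12 promoter 3, the Gpx4 promoter 2, and the Ltc4s promoter 0. The Alox5 and Alox12 promoters resembled each other in base composition, with 55.7% and 55.3% G or C and with 7 and 8 CpG dinucleotides, although the mean TPM of Alox5 was 17.2 and that of Alox12 was 0.0883. The Gpx4 window shown, 1 of 4 listed for that gene, held 31 CpG dinucleotides, the most of the 4. The others held 3, 26, and 29, with 0, 2, and 1 GC boxes. The Ltc4s window held 6 CpG dinucleotides, so a contrast with Gpx4 depends on the window chosen.

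The sorted cells carried the RNA of myogenic cells. The 11 muscle stem cell and myoblast markers summed to between 3471 and 4280 TPM with RvD1 and between 3242 and 3600 TPM with vehicle, with Myog the highest. RNA of genes that mark cells outside the gate was present at lower levels, and the cells it came from were not tested. The 16 macrophage and pan-leukocyte markers summed to between 50.9 and 75.4 TPM with RvD1 and between 70.03 and 116 TPM with vehicle, and all 16 had counts in at least 1 library. The 5 fibro-adipogenic markers were led by Dcn, with a mean of 257 TPM. They summed to between 210 and 493 TPM with RvD1 and between 236 and 264 TPM with vehicle, the highest value being RvD1 replicate 1. That library also held the most mast cell marker RNA, 19.8 TPM over 7 markers against 0.45 to 5.51 TPM in the other 5. Libraries held between 16148026 and 28149176 expected counts.

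Alox5 supplied nearly all lipoxygenase RNA. Its level was 10.7, 17.9, and 29.6 TPM in RvD1 replicates 1, 2, and 3 and 12.3, 17.3, and 15.4 TPM in vehicle replicates 1, 2, and 3. The lowest and the highest value were both in RvD1 libraries, and the vehicle values lay between them. Among the 4 lipoxygenases, Alox5 made up between 95.3% and 99.5% of the summed TPM in a library. The gene (ENSMUSG00000025701) lies on chromosome 6 of GRCm38 from 116410077 to 116461178 on the minus strand, and 336, 758, and 579 expected counts with RvD1 and 270, 394, and 428 with vehicle were assigned to it. In edgeR the log2 fold change of RvD1 over vehicle was 0.25 (standard error 0.26, 95% confidence interval −0.34 to 0.83). The adjusted p was 0.971 by the quasi-likelihood test of edgeR, with the Benjamini-Hochberg method over all 14494 genes tested. The value depended on single mice. It was 0.50 without RvD1 replicate 1 and 0.02 without RvD1 replicate 3, and it was 0.11 without vehicle replicate 1 (adjusted p from edgeR 0.968, 0.986, and 0.974). Alox5 was highest in RvD1 replicate 3, where the 16 macrophage and pan-leukocyte markers were at their lowest sum, 50.9 TPM, and Ptprc, which encodes CD45, was at 0.50 TPM (0.08 to 1.13 TPM over all libraries). It was 15.4 TPM in vehicle replicate 3, where those markers were at their highest sum, 116 TPM. RvD1 replicate 3 also had the highest neutrophil marker sum, 2.35 TPM (1.17 CPM, thus few counts), and the second highest mast cell marker sum, 5.51 TPM. Myod1, a muscle stem cell and myoblast marker chosen after its values were seen, was lowest and highest in the same libraries as Alox5. It was at 239, 381.5, and 470 TPM in RvD1 replicates 1, 2, and 3 and at 325, 343, and 376 TPM in vehicle replicates 1, 2, and 3. Markers of that list did not run alike, since Pax7 and Chodl were highest in RvD1 replicate 1, where Alox5 was lowest. The part of leukocytes or of myogenic cell state in the Alox5 values was not tested.

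Because TPM depends on the transcript length that RSEM assigns, the length implied by dividing expected counts by FPKM and library total was compared between libraries. For Lta4h, Gpx4, Ephx1, and Ephx2 the highest implied length exceeded the lowest by a factor of at most 1.05. For Alox5, which has 8 annotated transcripts, the implied length was 1819 bases in RvD1 replicate 3 and 2430 bases in RvD1 replicate 2, a factor of 1.34 between the extremes. On the CPM scale (counts divided by the library total, with no length term), Alox5 in those libraries was at 32.2 and 26.9 CPM, closer than the 29.6 and 17.9 TPM. For Alox5ap the implied length ranged from 586 to 1020 bases. For these 2 genes a difference in TPM between libraries is thus partly one in assigned length.

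**Figure D2:**
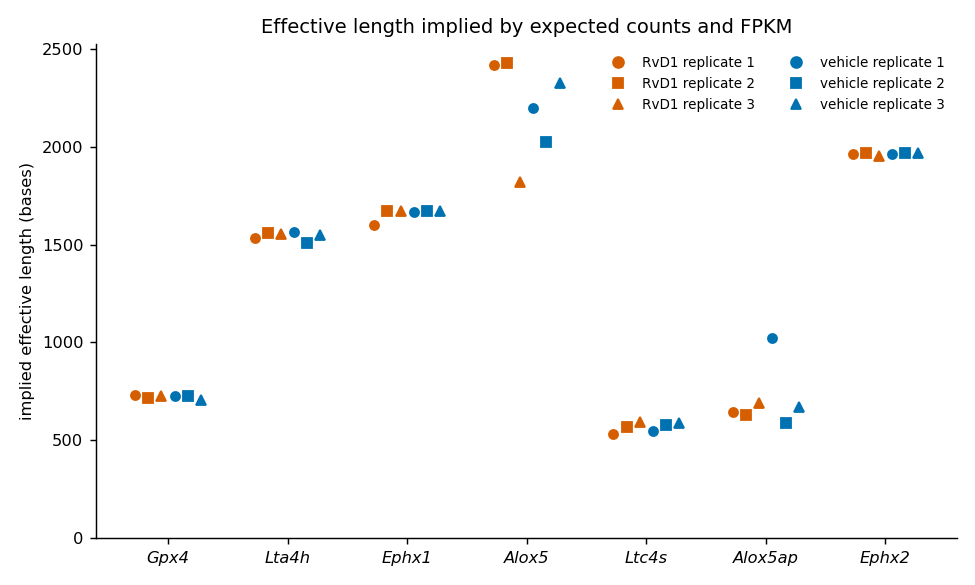
Effective transcript length in bases implied by the deposited expected counts and FPKM for the 7 genes with at least 0.5 FPKM in every library, by library. The points of Alox5 and Alox5ap spread over factors of 1.34 and 1.74, while those of Gpx4, Lta4h, Ephx1, and Ephx2 nearly coincide.

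The other lipoxygenases were at the limit of detection. Alox12, the platelet-type 12-lipoxygenase (chromosome 11, 70241457 to 70255353), had 6, 2, and 1 counts with RvD1 and 5, 3, and 1 with vehicle. Alox8, the mouse 8-lipoxygenase (chromosome 11, 69183932 to 69197843), had 7, 2, and 3 counts with RvD1 and 3, 1, and 3 with vehicle. The groups overlapped for each gene, and 3 counts, the limit that a count of 0 allows, correspond to between 0.107 and 0.186 CPM across the libraries, a limit of counting error only. No difference between the groups was detectable at this depth for either gene. The 6 platelet markers summed to between 5.61 and 13.7 TPM. The 3 remaining lipoxygenase genes of the mouse on the pathway list, Alox12b, Alox12e, and Aloxe3, were also near 0, with at most 3 counts in a library and with Alox12e at 0 in every library.

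Alox15, the leukocyte-type 12/15-lipoxygenase (chromosome 11, 70344152 to 70352031), had 6, 0, and 9 counts in RvD1 replicates 1, 2, and 3 and 0 in each vehicle library. The groups overlapped, since RvD1 replicate 2 was also at 0. Over the groups this was 15 counts of 67480013 against 0 of 52683434. With the vehicle group set to the floor of 3 counts over the group, the pooled ratio of RvD1 to vehicle was 3.9. The 15 counts were taken as observed, so this ratio is not a lower bound. It allows for counting error in the vehicle group only and not for the spread between mice. All counts came from 2 of the 3 RvD1 mice, and the ratio was 2.13 without RvD1 replicate 3 and 6.70 without RvD1 replicate 2. An exact permutation test of log2(TPM + 1) gave p = 0.4 (two-sided, smallest possible p 0.1). The gene was below the count filter of the main edgeR fit, and edgeR without a count filter gave an adjusted p of 0.816. The libraries with Alox15 counts were also those with the most RNA of some leukocyte types, but not of macrophages. The 16 macrophage and pan-leukocyte markers had their lowest sum, 50.9 TPM, in RvD1 replicate 3. Their highest, 116 TPM, was in vehicle replicate 3, where Alox15 had 0 counts. In RvD1 replicate 1, the other library with Alox15 counts, these markers summed to 75.4 TPM, above the 70.03 TPM of vehicle replicate 2. The 10 neutrophil markers summed to 2 and 2.35 TPM in RvD1 replicates 1 and 3 and to between 0.37 and 0.83 TPM in the other 4 libraries, with S100a9, Ly6g, Retnlg, Ngp, and Ltf at 0 counts in every library. These sums rest on few counts, being 1.09 and 1.17 CPM against 0.495 to 0.694 CPM elsewhere. The mast cell markers summed to 19.8 and 5.51 TPM in RvD1 replicates 1 and 3 and to at most 2.03 TPM elsewhere. The 4 eosinophil markers summed to at most 0.17 TPM in any library. Cpa3, a mast cell carboxypeptidase, had 98 and 22 counts there, whereas Tpsb2 and Cma1, mast cell proteases that were chosen after their values were seen, had 86 and 68 counts in RvD1 replicate 1 and 0 in RvD1 replicate 3. Hdc, the histamine-forming enzyme, also chosen after its values were seen, had 97 counts and 3.86 TPM in RvD1 replicate 3, most of the mast cell sum of that library, but 9 counts in RvD1 replicate 1 against 23, 1, and 28 with vehicle. Kit, the receptor of stem cell factor, had between 2 and 8 counts in every library. The part of these cells in the Alox15 counts was not tested. In bulk RNA, fewer cells of a type and less RNA per cell cannot be told apart.

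**Figure D3:**
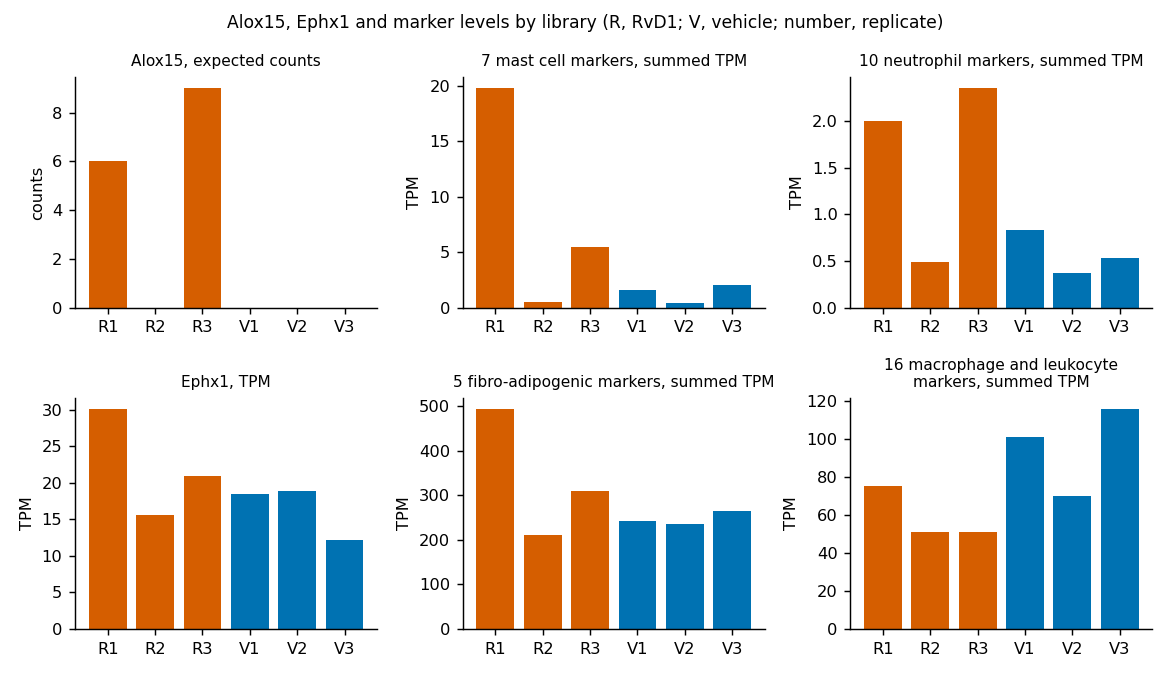
Expected counts of Alox15, TPM of Ephx1, and summed TPM of 4 marker lists in each library, with bars from 0 for RvD1 (R, orange) and vehicle (V, blue) replicates 1 to 3. Alox15 counts occur in RvD1 replicates 1 and 3, where the neutrophil and mast cell sums are also highest, and Ephx1 and the fibro-adipogenic sum are both highest in RvD1 replicate 1.

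Alox5ap (ENSMUSG00000060063, chromosome 5, 149264767 to 149288153), the partner of 5-lipoxygenase, was less abundant than Alox5 in every library. It was at 5.14, 6.11, and 4.2 TPM in RvD1 replicates 1, 2, and 3 and at 4.04, 9.70, and 5.36 TPM in vehicle replicates 1, 2, and 3. The RvD1 values in TPM lay inside the range of the vehicle values, whose highest was vehicle replicate 2. In CPM, which has no length term, they did not. The RvD1 libraries were at 2.01, 2.38, and 1.73 CPM and the vehicle libraries at 2.54, 3.60, and 2.29 CPM. RvD1 replicates 1 and 3 lay below every vehicle library, and RvD1 replicate 2 overlapped them. The ratio of Alox5 to Alox5ap in TPM ranged from 1.78 to 7.05, with the highest ratio in RvD1 replicate 3. The log2 fold change of Alox5ap was −0.49 (standard error 0.30, 95% confidence interval −1.17 to 0.19, edgeR adjusted p = 0.971), from 31 to 67 counts per library. It was −0.27 without vehicle replicate 2 and −0.20 on log2(TPM + 1) in limma (adjusted p = 0.910). An antisense gene, Gm19719, overlaps Alox5ap on chromosome 5 and had 0 counts in every library.

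The enzymes that divide leukotriene A4 between leukotriene B4 and the cysteinyl leukotrienes were both expressed, with Lta4h far above Ltc4s. Lta4h (ENSMUSG00000015889, chromosome 10, 93453411 to 93484875) was at 152.6, 131, and 147 TPM with RvD1 and at 153, 155, and 138 TPM with vehicle. The groups overlapped, and the means were 144 ± 11.2 TPM (SD, n = 3) and 149 ± 9.33 TPM (SD, n = 3). Its log2 fold change was −0.13 (standard error 0.09, 95% confidence interval −0.32 to 0.07, edgeR adjusted p = 0.971). On the CPM scale normalized by edgeR's TMM method, which corrects library totals for composition, the RvD1 libraries (127 to 138) lay below the vehicle libraries (139 to 151), whereas on TPM they did not, and in limma on log2(TPM + 1) the difference was −0.05.

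Ltc4s (ENSMUSG00000020377, chromosome 11, 50236461 to 50238616) was at 5.07, 4.45, and 5.83 TPM in RvD1 replicates 1, 2, and 3 and at 7.61, 6.92, and 7.26 TPM in vehicle replicates 1, 2, and 3. Every RvD1 library was below every vehicle library. The means were 5.12 ± 0.691 TPM for RvD1 and 7.26 ± 0.345 TPM for vehicle (SD, n = 3 each). The log2 fold change was −0.60 (standard error 0.28, 95% confidence interval −1.23 to 0.02) with an unadjusted p of 0.057 and an adjusted p of 0.971 from edgeR, so the difference did not pass the test. The exact permutation test of log2(TPM + 1) gave p = 0.1, the smallest that 3 mice against 3 allow. Between 35 and 50.9 expected counts per library stood behind these values. The span of the antisense gene Gm26542, with a mean of 3.85 counts, overlaps Ltc4s and reaches an exon of it. The cDNA kit does not keep strand, so reads in any sequence common to both could not be assigned by strand. Whether exons of the 2 genes overlap was not examined. The macrophage and pan-leukocyte marker sum ran lower with RvD1 as well, at 50.9 to 75.4 TPM against 70.03 to 116 TPM, but the groups overlapped. In that list 15 of the 16 markers had a lower mean CPM with RvD1, where the median log2 fold change of all 14494 genes was 0.01. Among them Lyz2, C1qb, Ms4a7, Tyrobp, and Ctss had an unadjusted edgeR p under the 0.05 threshold, where 1.64% of all genes were lower. Their log2 fold changes were −1.06, −0.73, −1.98, −1.04, and −1.36 (edgeR adjusted p = 0.971 for each). Lyz2 was among 12 genes with an adjusted p under 0.05 in edgeR without a count filter. Other leukocyte lists went the other way. A higher mean CPM with RvD1 was found for 6 of the 7 mast cell markers and 4 of the 10 neutrophil markers, with 1 lower in each list. The part of leukocytes in the Ltc4s values was not tested.

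The ratio of Lta4h to Ltc4s within a library, 1 of 5 ratios formed after the values were seen, was 30.1, 29.5, and 25.3 with RvD1 and 20.1, 22.4, and 19.0 with vehicle. All RvD1 ratios exceeded all vehicle ratios. This is no separate result, since the ratio mostly restates the Ltc4s difference. On log2(TPM + 1) the groups differed by −0.44 for Ltc4s and by −0.05 for Lta4h. The exact permutation test on log2 ratios gave p = 0.1, the smallest possible, and 0.5 after Benjamini-Hochberg adjustment over the 5 ratios.

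The epoxide hydrolases open epoxides by adding water. Ephx1 encodes the microsomal enzyme of xenobiotic metabolism, and Ephx2 the soluble enzyme that degrades epoxides of arachidonic acid. Ephx1 (ENSMUSG00000038776, chromosome 1, 180976210 to 181020904) was at 30.1, 15.6, and 21.0 TPM in RvD1 replicates 1, 2, and 3 and at 18.4, 18.9, and 12.1 TPM in vehicle replicates 1, 2, and 3. The groups overlapped, and the mean with RvD1 rested on replicate 1. The log2 fold change was 0.32 (standard error 0.23, 95% confidence interval −0.21 to 0.85, edgeR adjusted p = 0.971). It was 0.08 without RvD1 replicate 1, 0.49 without RvD1 replicate 2, and 0.15 without vehicle replicate 3. RvD1 replicate 1 was also the library with the highest fibro-adipogenic marker sum, 493 TPM against 210 to 310 TPM in the other 5, led by Dcn, a matrix proteoglycan, at 450.3 TPM. On TMM-normalized CPM, Dcn and Dpt were highest in that library. The other markers of the list were not: Pdgfra was highest in RvD1 replicate 3, and Ly6a and Col15a1 in vehicle replicate 1. Within that list Ly6a, which encodes the Sca-1 excluded by the gate, had a log2 fold change of −0.62 with an unadjusted p of 0.0141 (edgeR adjusted p = 0.971). The muscle stem cell and myoblast markers Pax7 and Chodl were also highest in RvD1 replicate 1, and Myod1 was lowest there. The part of fibro-adipogenic cells or of myogenic cell state in the Ephx1 value was not tested.

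Ephx2 (ENSMUSG00000022040, chromosome 14, 66084374 to 66124500) had the smallest fold change of the tested members. It was at 4.19, 3.15, and 4.14 TPM with RvD1 and at 4.03, 3.53, and 3.23 TPM with vehicle, and the groups overlapped. Its log2 fold change was 0.00 (standard error 0.22, 95% confidence interval −0.50 to 0.50, edgeR adjusted p = 0.999). The interval leaves room for a change of that size in either direction. Ephx1 exceeded Ephx2 in every library, by a factor of 3.75 to 7.18 in TPM.

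Gpx4, a selenoprotein that reduces phospholipid hydroperoxides, including those that lipoxygenases form, was the most abundant member. It was at 357, 337, and 358 TPM in RvD1 replicates 1, 2, and 3 and at 379.6, 390.04, and 377 TPM in vehicle replicates 1, 2, and 3. Every RvD1 library was below every vehicle library, by a small margin. The means were 351 ± 11.7 TPM for RvD1 and 382 ± 6.72 TPM for vehicle (SD, n = 3 each), and the exact permutation test of log2(TPM + 1) gave p = 0.1, the smallest possible. The gene (ENSMUSG00000075706) lies on chromosome 10 from 80047166 to 80056439 and had between 2754 and 4196 expected counts per library. The log2 fold change was −0.20 (standard error 0.08, 95% confidence interval −0.38 to −0.02), with an unadjusted p of 0.0352 and an adjusted p of 0.971 from edgeR. The unadjusted p was 0.0612 when library totals replaced the TMM factors. Expected counts of Gpx4 were not whole numbers, since RSEM divided some reads with other genes. The annotation lists a pseudogene of it, Gpx4-ps2, which is not among the genes of the deposited tables.

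**Figure D4:**
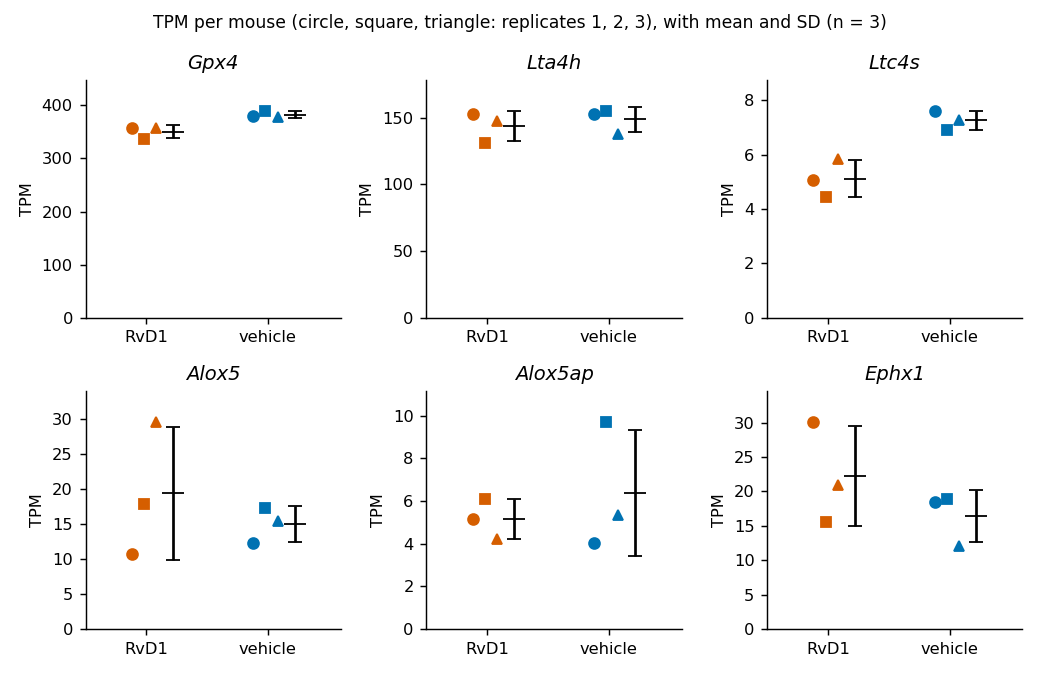
TPM of 6 members in each mouse, with the mean and SD (n = 3) of the RvD1 and vehicle groups beside the points and each axis starting at 0. The groups do not overlap for Gpx4 and Ltc4s and overlap for Lta4h, Alox5, Alox5ap, and Ephx1.

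Of the 10 members, 7 passed the count filter and were tested, and Alox12, Alox15, and Alox8 did not. None of the 7 had an adjusted p under 0.05 in edgeR, as for all genes tested (0%). At an unadjusted p under 0.05 there was 1 member, Gpx4, lower with RvD1, where 1.64% of all genes were lower at that threshold, 1.83% were higher, and 3.47% fell in either direction. On TMM-normalized CPM, the groups did not overlap for 3 members, Gpx4, Ltc4s, and Lta4h, all lower with RvD1, where 4.83% of all genes were lower without overlap, 4.8% were higher, and 9.62% did not overlap in either direction. With 7 genes that were not chosen at random, nothing is read from these shares beyond the counts. The median log2 fold change of the 7 was −0.13, and that of all 14494 genes was 0.01.

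The other genes of the pathway were taken from a list of 55, of which 54 were in the tables and 34 had enough counts to be tested. None had an adjusted p under 0.05, 22 had a fold change above 0 and 12 below, and their median log2 fold change was 0.06. At an unadjusted p under 0.05 there was 1, Gpx1, the abundant glutathione peroxidase of soluble peroxides, with means of 645 ± 43.5 TPM (SD, n = 3) in the RvD1 group and 759.5 ± 33.6 TPM (SD, n = 3) in the vehicle group. Its log2 fold change was −0.30 (standard error 0.10, edgeR adjusted p = 0.971), and its groups did not overlap. On TMM-normalized CPM it was the 1 pathway gene that was lower without overlap, and 2 were higher without overlap, Ggt5 and Ephx3, beside 4.83% and 4.8% of all genes. The groups overlapped for Fth1, the iron-storing ferritin heavy chain, which was the most abundant of 10 genes that act for or against lipid peroxidation (log2 fold change −0.18, standard error 0.09).

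Steps downstream of the leukotrienes differed widely in level. All 4 leukotriene receptors were below the count filter, and the highest, Cysltr1, a receptor for cysteinyl leukotrienes, had between 0 and 8 counts per library. Of 7 enzymes that trim glutathione from cysteinyl leukotrienes, 3 were tested. Over all 6 libraries Ggt7 had the highest mean, 1.98 TPM against 1.92 TPM for Dpep1, with group means of 2.09 ± 0.407 TPM (RvD1) and 1.87 ± 0.614 TPM (vehicle), both SD with n = 3. Of 9 enzymes that inactivate leukotrienes and other oxylipins, 6 were tested, and their mean levels ran from 0 TPM for Cyp4f15 upward. The most abundant, Hpgd, which oxidizes prostaglandins and lipoxins, averaged 105 ± 7.81 TPM (SD, n = 3) and 113 ± 1.49 TPM (SD, n = 3). Its fold change on the log2 scale was −0.19 (standard error 0.10, edgeR adjusted p = 0.971).

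Among genes close to the members in function, no group moved past the test. The relatives of Ltc4s and Alox5ap in the same membrane protein family, Mgst1, Mgst2, Mgst3, and Ptges, had log2 fold changes between −0.18 and 0.10, and the highest of them, Mgst1, averaged 48.6 ± 22.7 TPM in the RvD1 group and 45.1 ± 7.42 TPM in the vehicle group (SD, n = 3). Of the epoxygenases, which form the substrates of Ephx2, Cyp2j6 was highest at 14.1 ± 4.47 TPM and 12.5 ± 1.07 TPM (SD, n = 3). Ephx3, a further epoxide hydrolase, had an estimate of 0.54 on the log2 scale (standard error 0.28, edgeR adjusted p = 0.971), short of the threshold, and reached 6.85 TPM in RvD1 replicate 1 against 2.96 to 3.84 TPM elsewhere. Of genes that act with 5-lipoxygenase, Mapkapk2, a kinase that phosphorylates it, was highest at 70.2 ± 5.57 TPM and 66.1 ± 3.67 TPM (SD, n = 3), with a log2 fold change of 0.01.

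**Figure D5:**
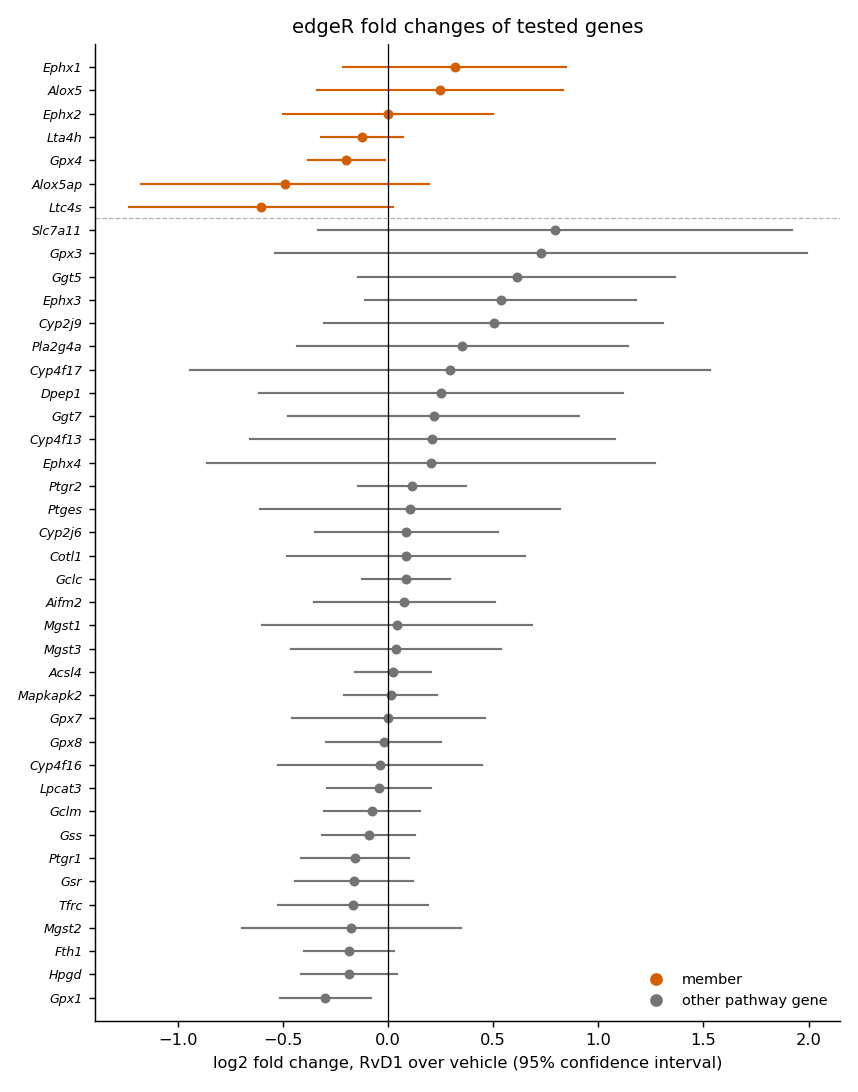
Log2 fold change of RvD1 over vehicle with its 95% confidence interval from edgeR for the 7 tested members (orange, top) and the 34 other tested pathway genes (gray). The intervals of Gpx4 and Gpx1 lie below 0 before adjustment for the number of genes tested, and all other intervals include 0.

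The genes whose levels ran most closely with 2 members were read over the 6 libraries on TMM log2 CPM, as a description, since libraries share depth and composition and 14493 genes were compared. For Gpx4, the tested member with the most counts, these were Smc6 (Pearson r = 0.999) and Mcmdc2 (Pearson r = 0.993). For Ltc4s, the tested member with the largest fold change, these were Actr10 (Pearson r = 0.985) and Pmvk (Pearson r = 0.982). With so few libraries, 78 and 91 genes had an r above 0.9 with Gpx4 and Ltc4s.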

How the data were processed

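RNA-Seq libraries of sorted MuSCs from 3 RvD1-treated and 3 vehicle-treated mice were analysed. Per the labels, the authors aligned reads to mm10 with STAR 2.5.0a and quantified genes with RSEM, whose version and annotation are not given in the sources used here. Expected counts are RSEM estimates as deposited, with no correction for depth. TPM, as deposited, corrects for effective transcript length and sets each library to a common total. FPKM, as deposited, corrects for length and fragment number. SMART-Seq cDNA carries no strand, so reads in sequence common to a gene and an antisense gene cannot be assigned by strand.

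After removal of 1 stray header line, expected counts were rounded and tested with edgeR 4.0.16 in R 4.3.3 (TMM, filterByExpr by group, quasi-likelihood test, Benjamini-Hochberg adjustment over 14494 genes, threshold 0.05). Standard errors and 95% intervals were computed from the fold change and test statistic. The authors' limma-voom procedure with surrogate variables (limma 3.58.1, sva 3.50.0) and DESeq2 1.42.0 served as alternatives, with other scaling factors, filters, pseudocounts, units, a replicate block, and each replicate left out. TPM was compared by two-sided exact permutation of log2(TPM + 1) over the 20 assignments of 3 and 3. None of the 15 library pairs held identical values. On simulated counts with 200 genes changed 4-fold, edgeR recovered 194 with 20 false calls among 14244 genes tested. The changed genes were drawn above a minimum mean count that Ltc4s and Alox5ap did not reach, and no tested member differed by that much. The recovery therefore does not show what could be detected for the members.

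Every member is named. From the pathway and marker lists, the genes named are those with an unadjusted p under 0.05 and the most abundant gene of a list, and listed genes at 0 in every library may be named as such. Other listed genes named (Ptprc, Gpx3, Mgst2, Mgst3, Ptges, Tpsb2, Cma1, Hdc, Kit, Dpep1, Ggt5, Alox12b, Aloxe3, Chodl, Pax7, Myod1, Dpt, Pdgfra, Col15a1) were chosen after their values were seen. The Alox15 ratio at the floor with a replicate left out was added after seeing the data. Members and lists were chosen with earlier results of these data known. Positions were taken from GENCODE M21 on GRCm38, the build that mm10 denotes.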

Additional observations from a re-analysis of the deposited data

How the results depend on the processing

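With 3 mice a group, p-values reflect the spread between these mice and fold changes of low-count members are wide. Over all genes, edgeR called 0 at the adjusted threshold of 0.05 (503 at an unadjusted p under 0.05), and the count was 0 under 12 of the 13 alternatives that kept all libraries and 12 in edgeR with no filter on low counts, where more low-count genes were tested. With 1 replicate left out it ranged from 0 to 1. No member and no gene of the pathway list was among these in any alternative. Apart from Ephx2, the 6 tested members kept their direction in all 114 refits, none with an adjusted p under 0.05. Gpx4 ranged from −0.22 to −0.12 on the log2 scale (adjusted p from 0.290 to 1) and had an unadjusted p under 0.05 in 10 of 19 refits, and Ltc4s ranged from −0.74 to −0.44 (adjusted p from 0.346 to 1) with an unadjusted p under 0.05 in 6 of 19.

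Ephx2, with a main value of 0.00034, changed sign and stayed near 0: −0.00645 with DESeq2, −0.00518 with RLE size factors, −0.000174 with upper-quartile factors, −0.00423 without a count filter, −0.000577 with genes of mean 10 counts or more, −0.0184 and −0.0264 with limma-voom without and with surrogate variables removed, and −0.00238 as a difference of mean TMM log2 CPM. With a replicate left out it ranged from −0.0587 to 0.103, below 0 without RvD1 replicate 1 (−0.0567), RvD1 replicate 3 (−0.052), vehicle replicate 2 (−0.00358), or vehicle replicate 3 (−0.0587). The cause was not tested.

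Replicate numbers recur in both groups but mark different mice, and deviations of same-numbered libraries correlated at 0.31, −0.00071, and 0.126. The best-matching vehicle library was replicate 1 for RvD1 replicate 1 and replicate 3 for RvD1 replicates 2 and 3. The numbers were not taken as pairs in the main fit. These correlations do not settle whether same-numbered libraries shared a batch. With the replicate block, edgeR called 0 genes, 896 had an unadjusted p under 0.05, and Ephx2 was at −0.00382.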

Other observations

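Among the glutathione peroxidases, Gpx3, which encodes the secreted plasma enzyme and was chosen after its values were seen, was the least even. It was at 1361 TPM in RvD1 replicate 1 and between 263 and 464 TPM in the other 5 libraries. Its log2 fold change was 0.73 (standard error 0.56, edgeR adjusted p = 0.971), and it was not past the test. RvD1 replicate 1 is also the library with the highest fibro-adipogenic and mast cell marker sums. Among the muscle stem cell and myoblast markers, Chodl and Pax7 were highest in that library and Myod1 was lowest. Chodl was at 122.77 TPM there and between 10.81 and 27.54 TPM in the other 5. Vehicle replicate 1 was second for Gpx3, Chodl, and Pax7. The summed myogenic list was instead highest in RvD1 replicate 3. The part of other cells or of myogenic cell state in the Gpx3 value was not tested.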
